A study of Mus musculus with 6 samples.

Results

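ATF4, 4 related basic leucine zipper transcription factors (ATF3, ATF5, DDIT3 and CEBPB) and 5 stress-response effectors (TRIB3, CHAC1, DDIT4, SESN2 and GDF15) were followed in prostate cancer cells selected for resistance to BL-B01D1. The 10 genes were taken from the deposited count table by their gene names, out of 58735 genes in the table, and all 10 had enough counts to be tested. The table holds 6 RNA-Seq libraries of 22Rv1, an androgen receptor–positive prostate carcinoma line, with 3 libraries per group. The first group was the parental line given vehicle. The other group was the subline 22Rv1 BL-B01D1_R, obtained by stepwise exposure to rising concentrations of BL-B01D1, a bispecific antibody-drug conjugate against EGFR and HER3 that carries the camptothecin-derived topoisomerase I inhibitor Ed-04. Both groups share the 22Rv1 background. The study derived 1 resistant subline, so the libraries of each group sample 1 line. The sources used here do not say whether the libraries came from separate cultures, or whether the drug was present at harvest. P-values therefore measure only the spread between these libraries, which may be technical, and drift between the lines cannot be told apart from resistance.

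ATF4 is the main transcription factor of the integrated stress response. When kinases that sense amino acid shortage, endoplasmic reticulum stress, heme shortage or viral RNA phosphorylate eIF2alpha, bulk translation slows while the ATF4 message is translated more efficiently through its upstream open reading frames. ATF4 then pairs with other leucine zipper proteins and switches on genes for amino acid synthesis, amino acid uptake and tRNA charging, and, when stress persists, a second tier of stress effectors and cell death genes. Because ATF4 is controlled largely at translation, mRNA counts give the level of its transcript and not of the protein, and the protein was not measured here.

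Total counts on genes ranged from 13821639 to 17251491 per library, so that 3 counts corresponded to 0.174 to 0.216 CPM (counts scaled to a fixed library total after TMM scaling of library sizes). The 10 luminal prostate markers were all detected, with a summed level of 3448 to 3550 CPM in parental and 3640 to 3728 CPM in resistant libraries. The sum hides changes of single markers in both directions. By the test described below (FDR of less than 0.05), 6 were higher, 3 were lower and 1 did not pass. Over all genes tested, 17.1% were higher and 18.4% lower. Log2 fold changes of the luminal markers ran from −0.48 to 0.91, with a median of 0.12. Of 17 markers of basal, neuroendocrine, stromal and immune cells, 11 had too few counts to be tested and KRT5 was at 0 counts in every library. This second list summed to 171 to 183 CPM in parental and 185 to 190 CPM in resistant libraries. Within it, VIM rose (log2 fold change 1.76), while CHGA (−2.26) and COL1A1 (−0.28) fell. Of the 6 tested genes, 1 was thus higher, 2 were lower and 3 did not pass, against 17.1% higher and 18.4% lower over all genes. Only 1 gene of this list was lower without parental library 2, resistant library 1 or resistant library 2. The same held with no filter, with DESeq2, with limma on log2(FPKM + 1) and with glmTreat, all described below. PTPRC, the pan-leukocyte marker, had at most 3 counts in any library. The part of these markers in the results below was not tested. Genes of the mitochondrial genome took 4.19% to 4.21% of parental counts and 5.11% to 5.35% of resistant counts. In bulk RNA, fewer expressing cells and less RNA per cell cannot be told apart.

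The 10 genes did not move together. ATF4, ATF3 and CEBPB fell in resistant cells. ATF5, TRIB3 and DDIT4 rose. DDIT3, CHAC1, SESN2 and GDF15 did not pass the test, namely the quasi-likelihood test of edgeR, with p adjusted after Benjamini and Hochberg over 17142 tested genes and a threshold of 0.05 on that adjusted p (FDR). Thus, 3 of the 10 genes were higher and 3 were lower. Over all genes tested, 17.1% passed in the higher and 18.4% in the lower direction, and the share among these 10 genes (6 of 10) is to be read against that. None of the 10 moved by more than 1 on the log2 scale, whereas 5.37% of all genes moved that far with an FDR of less than 0.05. When the test asked for an absolute log2 fold change greater than 0.5 (edgeR's glmTreat), 0 of the 10 passed. Over all genes, 329 higher and 364 lower genes passed this stricter test with an absolute log2 fold change over 1. The share of all genes passing it at any size was not computed, so glmTreat counts below have no such share beside them.

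**Figure D1:**
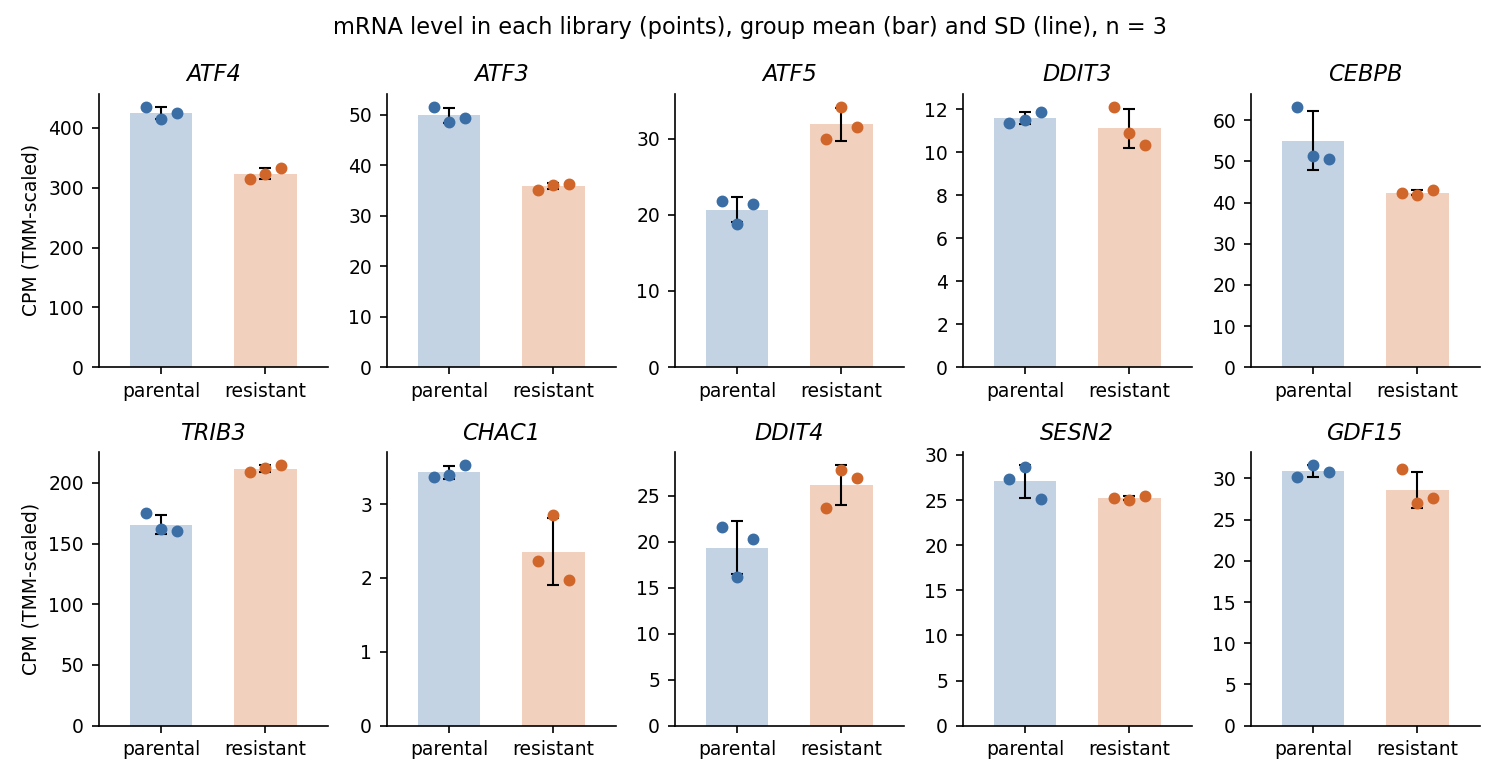
Level of each of the 10 mRNAs in CPM (y axis, linear from 0, a separate scale per panel) in 3 parental libraries (blue) and 3 resistant libraries (orange). Points are libraries, bars are group means and lines are SDs. ATF4, ATF3, CEBPB and CHAC1 show all resistant points under all parental points, ATF5, TRIB3 and DDIT4 show the opposite, and the points of DDIT3, SESN2 and GDF15 overlap.

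ATF4 (ENSG00000128272) is a forward-strand gene (hg38 chromosome 22, 39519695 to 39522685). ATF4 mRNA stood at 436, 415 and 426 CPM in parental libraries 1, 2 and 3 and at 315, 323 and 332 CPM in resistant libraries 1, 2 and 3. Every resistant library was below every parental library, and the spread within each group was small. The mean fell from 426 ± 10.3 CPM (SD, n = 3) to 324 ± 8.79 CPM (SD, n = 3), a decrease in which the transcript dropped by 24.0%. The log2 fold change was −0.40 (SE 0.029, FDR 9.17e-15).

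ATF3 is a stress-inducible factor that ATF4 can induce and that often acts as a repressor on shared sites. The gene (ENSG00000162772; chromosome 1, 212565334 to 212620777, forward strand) gave 51.6, 48.7 and 49.3 CPM in parental libraries and 35.1, 36.1 and 36.4 CPM in resistant libraries. The groups did not overlap. ATF3 fell with a log2 fold change of −0.48 (SE 0.060, FDR 1.83e-08), and its fold change was the largest decrease among the 6 genes that passed.

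CEBPB encodes C/EBPβ, a partner of ATF4 on composite C/EBP-ATF sites (ENSG00000172216; chromosome 20, 50190734 to 50192689, forward strand). It gave 63.3, 51.3 and 50.6 CPM in parental libraries and 42.4, 41.8 and 43.0 CPM in resistant libraries. Parental library 1 stood above the other parental libraries, and all 3 were above the resistant ones. The log2 fold change was −0.38 (SE 0.066, FDR 9.45e-06). The fold change ranged from −0.43 to −0.26 when each library was left out in turn, and it passed in each of these 6 fits.

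ATF5 is the closest relative of ATF4 and is known for a role in the mitochondrial unfolded protein response (ENSG00000169136; chromosome 19, 49928702 to 49933935, forward strand). It gave 21.8, 18.8 and 21.4 CPM in parental libraries and 29.9, 34.2 and 31.6 CPM in resistant libraries. All resistant libraries were higher. ATF5 thus rose while ATF4 fell, from 20.7 ± 1.62 CPM to 31.9 ± 2.16 CPM (SD, n = 3 each). The log2 fold change was 0.62 (SE 0.079, FDR 1.69e-08), the largest increase among the 10 genes. The table lists ATF5 as overlapping NUP62 on the opposite strand by 1062 bases, and whether reads were counted by strand is not given in the sources used here. NUP62 itself rose by less, with a log2 fold change of 0.12 (FDR 0.0103). On the opposite strand, AC011452.1 shares 5234 bases with ATF5 and had 0 counts. IL4I1 shares 838 bases there and had 6 to 11 counts per library. The effect of these overlaps on the ATF5 counts was not tested.

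DDIT3 encodes CHOP, the factor most associated with the death arm of prolonged endoplasmic reticulum stress (ENSG00000175197; chromosome 12, 57516588 to 57521737, reverse strand). It gave 11.4, 11.5 and 11.9 CPM in parental libraries and 12.1, 10.9 and 10.4 CPM in resistant libraries. The groups overlapped, since resistant library 1 was the highest of all 6. The log2 fold change was −0.06, with a 95% confidence interval of −0.28 to 0.17 (FDR 0.742). Decreases and increases within these bounds remain compatible with the data. DDIT3 also shares 2769 bases with AC022506.1, a gene on its own strand that had 0 counts. The effect of this overlap on the DDIT3 counts was not tested. DDIT3 shares 982 bases with MARS and 1028 bases with MBD6, both on the opposite strand. MARS, which encodes methionyl-tRNA synthetase and had 1687 to 2980 counts per library, fell (log2 fold change −0.60, FDR 3.09e-17), and the part of reads from the shared stretch in the DDIT3 counts was not tested.

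Among the effectors, TRIB3 had the highest counts (ENSG00000101255; chromosome 20, 362835 to 397559, forward strand). TRIB3 is a pseudokinase induced by ATF4 and CHOP that binds AKT and feeds back on ATF4 activity. It gave 175, 162 and 160 CPM in parental libraries and 209, 212 and 214 CPM in resistant libraries. All resistant libraries were higher, in the direction opposite to ATF4. The mean rose from 166 ± 8.07 CPM to 212 ± 2.87 CPM (SD, n = 3 each), with a log2 fold change of 0.35 (SE 0.035, FDR 4.82e-11).

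DDIT4, also known as REDD1, restrains mTORC1 through the TSC complex (ENSG00000168209; chromosome 10, 72273920 to 72276036, forward strand). Parental libraries had 21.6, 16.1 and 20.3 CPM and resistant libraries had 23.6, 27.8 and 26.9 CPM. Parental library 2 was the lowest of the 6, and the groups did not overlap. DDIT4 rose with a log2 fold change of 0.43 (SE 0.090, FDR 1.49e-04), which ranged from 0.31 to 0.53 with each library left out in turn and passed in each of these fits.

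SESN2 is a leucine sensor that restrains mTORC1 through GATOR2 (ENSG00000130766; chromosome 1, 28259527 to 28282491, forward strand). It gave 27.4, 28.7 and 25.1 CPM in parental libraries and 25.3, 24.9 and 25.4 CPM in resistant libraries. Resistant library 2 was below every parental library, and the other 2 resistant libraries lay at the lower end of the parental range. The log2 fold change was −0.11, with a 95% confidence interval of −0.26 to 0.05 (FDR 0.291).

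GDF15 is a secreted cytokine of the TGF-β superfamily that rises in the blood under many forms of cell stress (ENSG00000130513; chromosome 19, 18374731 to 18389176, forward strand). Parental libraries had 30.2, 31.6 and 30.8 CPM and resistant libraries had 31.1, 27.1 and 27.7 CPM. Resistant library 1 lay among the parental libraries, and the other 2 resistant libraries lay below them. The log2 fold change was −0.11, with a 95% confidence interval of −0.25 to 0.04 (FDR 0.261).

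CHAC1 degrades glutathione and is among the most sensitive reporters of ATF4 activity in other cells (ENSG00000128965; chromosome 15, 40952962 to 40956519, forward strand). It was the least abundant of the 10, with 58, 57 and 49 counts in parental libraries and 37, 42 and 32 counts in resistant libraries. These counts corresponded to 3.36, 3.39 and 3.53 CPM and to 2.23, 2.86 and 1.97 CPM. All resistant libraries were lower, but the test was just missed (log2 fold change −0.55, 95% confidence interval −0.9985 to −0.0955, FDR 0.0524). The call depended on the processing. With library size alone, with at least 10 counts required in every library, with limma-voom and with limma on log2(FPKM + 1), the FDR was between 0.0247 and 0.0494. Without resistant library 2, the highest of the resistant libraries, the log2 fold change was −0.70 and the FDR was 0.0342. Leaving out resistant library 3 instead gave an FDR of 0.184.

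Over the 10 genes, 3 had all resistant libraries above all parental libraries and 4 had them all below, against 22.1% and 22.8% of all genes tested. For each of these 7 genes, an exact permutation test (two-sided) gave p = 0.1, the smallest that 3 against 3 allows, and for DDIT3, SESN2 and GDF15 it gave 0.5, 0.3 and 0.3.

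**Figure D2:**
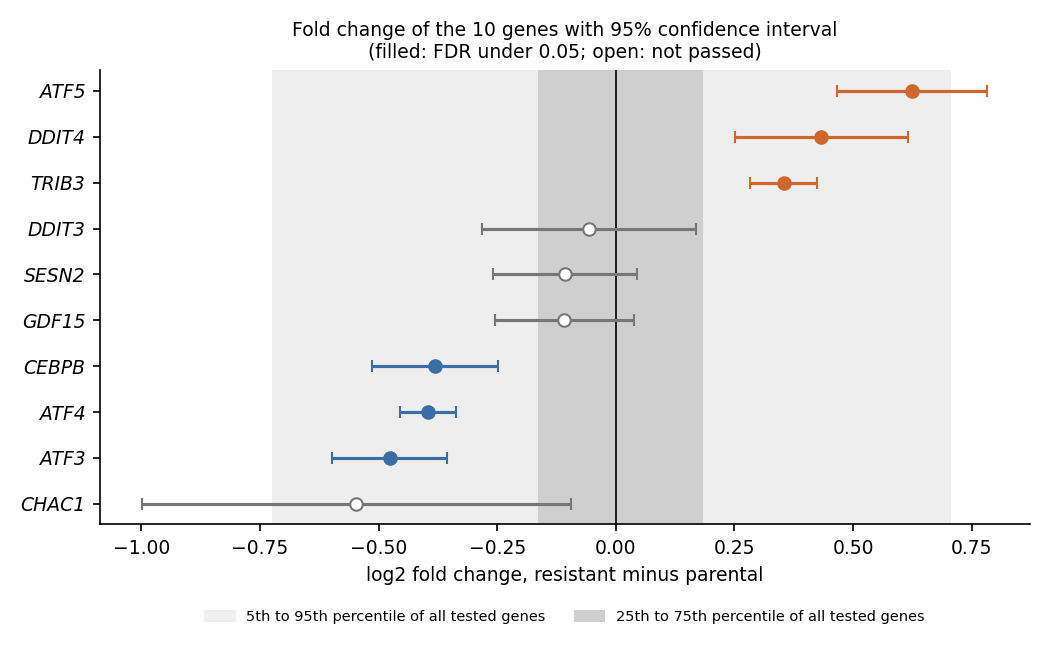
Log2 fold change (x axis, resistant minus parental) of the 10 genes with 95% confidence intervals. Filled symbols passed an FDR of 0.05 (orange higher, blue lower) and open symbols did not. The grey bands hold the 5th to 95th and the 25th to 75th percentile of all 17142 tested genes. All 6 filled symbols lie outside the inner band, whose edges are −0.16 and 0.18, and inside the outer one, from −0.72 to 0.70.

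Compared with the rest of the transcriptome, the 6 genes that passed had changes of above-median size, in part because passing itself favors larger changes. The median absolute log2 fold change of all tested genes was 0.17. The change of ATF5 was larger than that of 87.7% of tested genes, the change of ATF3 larger than that of 82.1%, and the change of ATF4 larger than that of 77.4%. Among the genes that did not pass, the changes of SESN2, GDF15 and DDIT3 exceeded those of 34.4%, 34.96% and 19.3% of tested genes. The change of CHAC1, which did not pass either, exceeded that of 84.96%, more than for ATF3 or ATF4. The median log2 fold change of all tested genes was 0.0038, so the scaling placed the bulk of genes near no change.

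To compare levels between genes, counts were also divided by gene length (FPKM, CPM per kilobase of gene length). In parental cells, ATF4 was the most abundant at 169 FPKM, followed by TRIB3 (48.2), CEBPB (28.2), GDF15 (14.8), ATF3 (12.3), DDIT4 (9.40), DDIT3 (8.86), SESN2 (7.84), ATF5 (6.999) and CHAC1 (1.67). In this order, the libraries of DDIT4 and DDIT3 overlapped, as did those of SESN2 and ATF5, and all other neighbors were separate. In resistant cells, the order began in the same way, with ATF4 at 129 FPKM, TRIB3 at 61.7 and CEBPB at 21.7. There, GDF15 (13.7), DDIT4 (12.7) and ATF5 (10.8) followed, with overlap between GDF15 and DDIT4 and between DDIT4 and ATF5. ATF3 (8.88) and DDIT3 (8.51) overlapped each other, and SESN2 (7.30) and CHAC1 (1.14) came last. ATF5 thus moved from place 9 to place 6, and ATF3 from place 5 to place 7.

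The ratio of each gene to ATF4 within the same library does not depend on library scaling. These ratios, given as raw counts per 100 ATF4 counts and not adjusted for gene length, compare the groups and not the genes with each other. Because ATF4 itself fell by 0.40 on the log2 scale, a gene with no change of its own has a higher ratio in resistant libraries. TRIB3 gave 40.1, 39.0 and 37.6 per 100 in parental libraries and 66.3, 65.7 and 64.5 per 100 in resistant libraries. ATF5 gave 5.00, 4.53 and 5.03 in parental libraries and 9.502, 10.6 and 9.49 in resistant libraries. DDIT4 gave 4.95, 3.88 and 4.77 in parental libraries and 7.51, 8.60 and 8.10 in resistant libraries. For these 3 genes, the resistant ratios were well apart from the parental ones.

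ATF3 kept close to ATF4, with 11.7 ± 0.12 per 100 in parental and 11.1 ± 0.13 per 100 in resistant libraries (SD, n = 3 each), and CEBPB did so too, with 12.9 ± 1.42 and 13.1 ± 0.32 per 100. The ratios of DDIT3 (2.72 to 3.44 per 100), SESN2 (6.37 to 7.79) and GDF15 (7.26 to 8.86) had higher means in resistant libraries, while the CPM of these 3 genes did not pass the test, so that their ratios carry the decrease of ATF4. Of the 9 ratios, 6 were higher in all resistant libraries, that of ATF3 was lower in all of them, and those of CEBPB and CHAC1 overlapped. An exact permutation test (two-sided) gave p = 0.1 for each of the 7 ratios that did not overlap, the smallest possible, 1 for CEBPB and 0.5 for CHAC1.

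**Figure D3:**
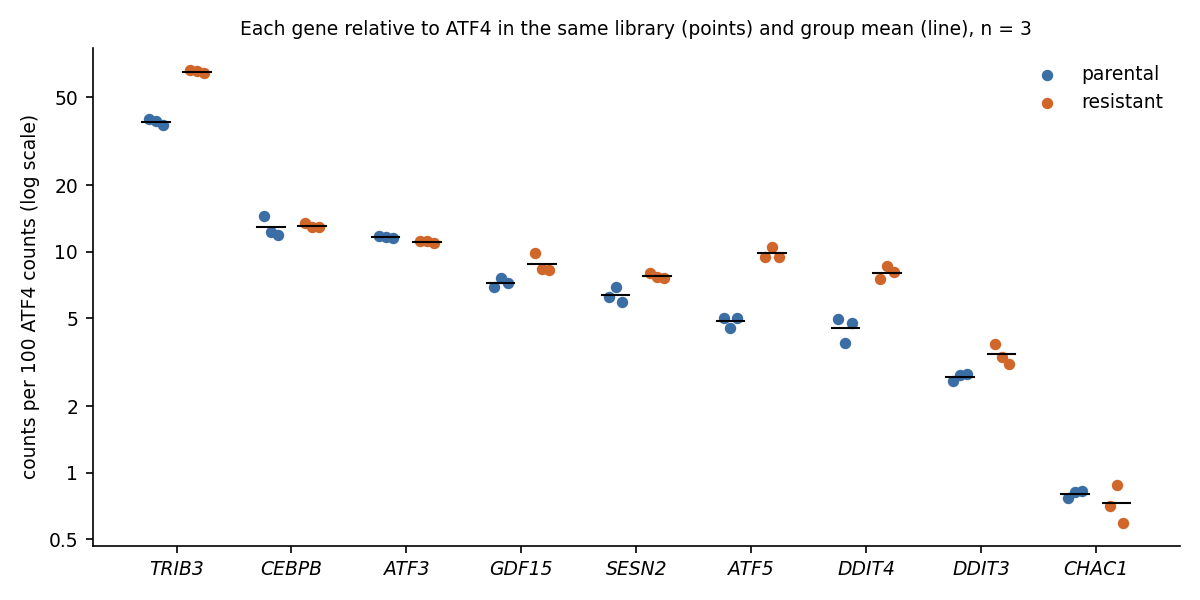
Counts of each of 9 genes per 100 ATF4 counts in the same library (y axis, log scale), for 3 parental (blue) and 3 resistant (orange) libraries, with group means as lines. The resistant points of TRIB3, ATF5 and DDIT4 sit clearly above the parental points, whereas those of ATF3 and CEBPB stay near them.

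The libraries of a group differed most for different genes in the groups. On the log2 CPM scale, DDIT4 had the largest SD over parental libraries (0.22), followed by CEBPB (0.18) and ATF5 (0.115). In resistant libraries, CHAC1 had the largest SD (0.26), followed by DDIT4 (0.123) and DDIT3 (0.115). ATF4 varied little in either group, with an SD of 0.035 and 0.039.

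By Pearson's r of log2 CPM over the 6 libraries, EHBP1L1, SEPT2, NFKB2 and AHNAK were among the genes most like ATF4, with r between 0.9984 and 0.9994. ATF3 came at place 7 of all tested genes (r 0.998), and CEBPB had an r of 0.902. TRIB3 (r −0.938), ATF5 (−0.926) and DDIT4 (−0.755) ran opposite to ATF4. The 6 libraries form 2 groups, so that r here mostly follows the difference between the lines, and it is given as a description.

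Other genes of the pathway were taken from lists chosen with earlier results of these data known. The counts below therefore describe these data and are no independent support. A gene may stand in several lists. The amino acid branch was lower almost throughout. Of 18 enzymes of amino acid and one-carbon metabolism, 15 were lower, 0 were higher and 3 did not pass, with a median log2 fold change of −0.43. BCAT1, which transaminates branched-chain amino acids, fell from 10.4 ± 0.45 to 2.60 ± 0.25 CPM (log2 fold change −2.001), and ALDH1L2, a mitochondrial folate enzyme, fell from 219 ± 3.84 to 95.7 ± 1.80 CPM (−1.19; SD, n = 3 each). The smallest decreases that passed were those of ALDH18A1 (−0.17) and GOT1 (−0.17). PHGDH, the first enzyme of serine synthesis, fell with a log2 fold change of −0.83, and ASNS, asparagine synthetase and a classic ATF4 target, with −0.45 (FDR 0.0130); these last were named after their values were seen.

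Of 12 tested amino acid transporter genes, 10 were lower and 0 higher, with a median of −0.64. SLC7A5 and SLC3A2, the chains of the large neutral amino acid transporter, fell most (log2 fold changes −3.26 and −2.501), and SLC38A1 and SLC38A2 fell least among those that passed (−0.38 and −0.30). All 13 genes of the tRNA charging list were lower, with a median of −0.28, from −0.60 for MARS and −0.59 for YARS to −0.13 for LARS and −0.12 for NARS. In these lists, every gene that passed moved in the direction of ATF4, ATF3 and CEBPB and opposite to TRIB3, ATF5 and DDIT4. Over all genes, 18.4% passed in the lower direction. Against a log2 fold change of 0.5 (glmTreat), 4 of the enzymes, 6 of the transporters and 2 of the tRNA charging genes were lower. The 18.4% belongs to the plain test, and no share over all genes was computed for glmTreat.

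Among the leucine zipper relatives, more genes were lower than higher. Of 38 tested genes, 17 were lower, 2 were higher and 19 did not pass, with a median of −0.27. Over all genes tested, 18.4% passed in the lower and 17.1% in the higher direction. With glmTreat against 0.5, 4 of these relatives were lower and 0 higher. FOSB (4.17 ± 0.62 to 1.96 ± 0.35 CPM; log2 fold change −1.09) and CREB5 (2.67 ± 0.26 to 1.29 ± 0.21 CPM; −1.04) fell most, and CEBPD (0.27) and CREB3 (0.19) rose. The number of higher genes was 0 without parental library 3 and 1 without resistant library 3. CEBPG, a dimer partner of ATF4, fell from 146 ± 4.95 to 98.2 ± 4.10 CPM (−0.58, FDR 1.59e-15), and JUN had a log2 fold change of 0.03 (FDR 0.735); both were named after their values were seen.

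Among paralogs of the effectors, no gene that passed was lower. Of 6 genes, 4 were higher, CHAC2 did not pass (log2 fold change 0.21, FDR 0.314) and TRIB2 had too few counts to be tested. Of all genes tested, 17.1% passed in the higher and 18.4% in the lower direction. With glmTreat against 0.5, 1 of the paralogs was higher. The number of higher paralogs was 3 with DESeq2, with limma on log2(FPKM + 1), without parental library 3 and without resistant library 2. DDIT4L, the paralog of DDIT4, rose from 11.2 ± 2.22 to 48.7 ± 2.31 CPM (SD, n = 3 each; log2 fold change 2.13, FDR 3.40e-23). TRIB1 rose with a log2 fold change of 0.30, SESN1, a p53 target, with 0.44 and SESN3 with 0.14. Thus, both DDIT4 and DDIT4L rose, as did both TRIB3 and TRIB1, whereas SESN1 and SESN3 rose and SESN2 did not pass. Whether SESN1 and SESN2 differ in their response was not tested.

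Upstream of ATF4, most genes of the eIF2 branch did not pass. Of 20 genes, 6 were lower, 0 were higher and 14 did not pass, with a median of −0.0152. The shares over all genes tested were 18.4% lower and 17.1% higher. With glmTreat against 0.5, 0 of the 20 were lower. Without parental library 1, 1 gene was higher. EIF2AK3, which encodes the endoplasmic reticulum kinase PERK, fell most (26.6 ± 0.88 to 19.9 ± 0.88 CPM; log2 fold change −0.41), followed by PPP1R15A (−0.30), the stress-induced subunit that directs dephosphorylation of eIF2alpha. EIF2S2 (−0.22) and EIF2AK2 (−0.19), which encodes PKR, fell least. EIF2AK4, which encodes the amino acid sensor GCN2 and was named after its value was seen, had a log2 fold change of 0.0015 (FDR 0.982).

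Other stress targets of ATF4 and CHOP went both ways. Of 27 tested genes, 15 were lower, 4 higher and 8 did not pass, with a median of −0.17. The shares over all genes tested were 18.4% lower and 17.1% higher. With glmTreat against 0.5, 4 of the 27 were lower and 0 higher. LAMP3 (5.25 ± 0.78 to 1.53 ± 0.33 CPM; log2 fold change −1.77) and STC2 (33.7 ± 0.77 to 14.1 ± 1.09 CPM; −1.26) fell most. GADD45A, a growth arrest gene that p53 also induces, rose (12.7 ± 1.58 to 20.6 ± 0.73 CPM; 0.70), and so did TXNIP (127 ± 5.98 to 167 ± 3.29 CPM; 0.40). NUPR1, a stress-induced transcription cofactor named after its value was seen, fell with a log2 fold change of −0.75.

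The other branches of the unfolded protein response showed small changes. Of 20 genes of the ATF6 and XBP1 branches, 12 were lower, 3 higher and 5 did not pass, with a median of −0.12. The shares over all genes tested were 18.4% lower and 17.1% higher. With glmTreat against 0.5, 0 of the 20 were lower and 0 higher. DNAJB9 (log2 fold change −0.60) and SEC61B (−0.46) fell most, and SEL1L (0.20) and CALR (0.16) rose most. HSPA5, which encodes the chaperone BiP and was named after its value was seen, was 740 ± 23.1 CPM in parental and 783 ± 10.02 CPM in resistant libraries (log2 fold change 0.08, FDR 0.0108).

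DDIT4 and SESN2 both address mTORC1. Of 20 genes of that arm, 6 were higher, 2 lower and 12 did not pass, with a median of 0.0124, against 17.1% and 18.4% of all genes tested. RRAGC (log2 fold change 0.32) and MTOR itself (0.18) rose most, and SEC13 (−0.28) and SEH1L (−0.11), which are subunits of GATOR2 and of the nuclear pore, fell. Of the 20 genes, 0 reached an absolute log2 fold change of 1. The number of lower genes was 1 in 6 of the alternatives run, without resistant library 2 and without resistant library 3 among them, and 0 with glmTreat. The number of higher genes was 3 with limma on log2(FPKM + 1) and 0 with glmTreat.

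**Figure D4:**
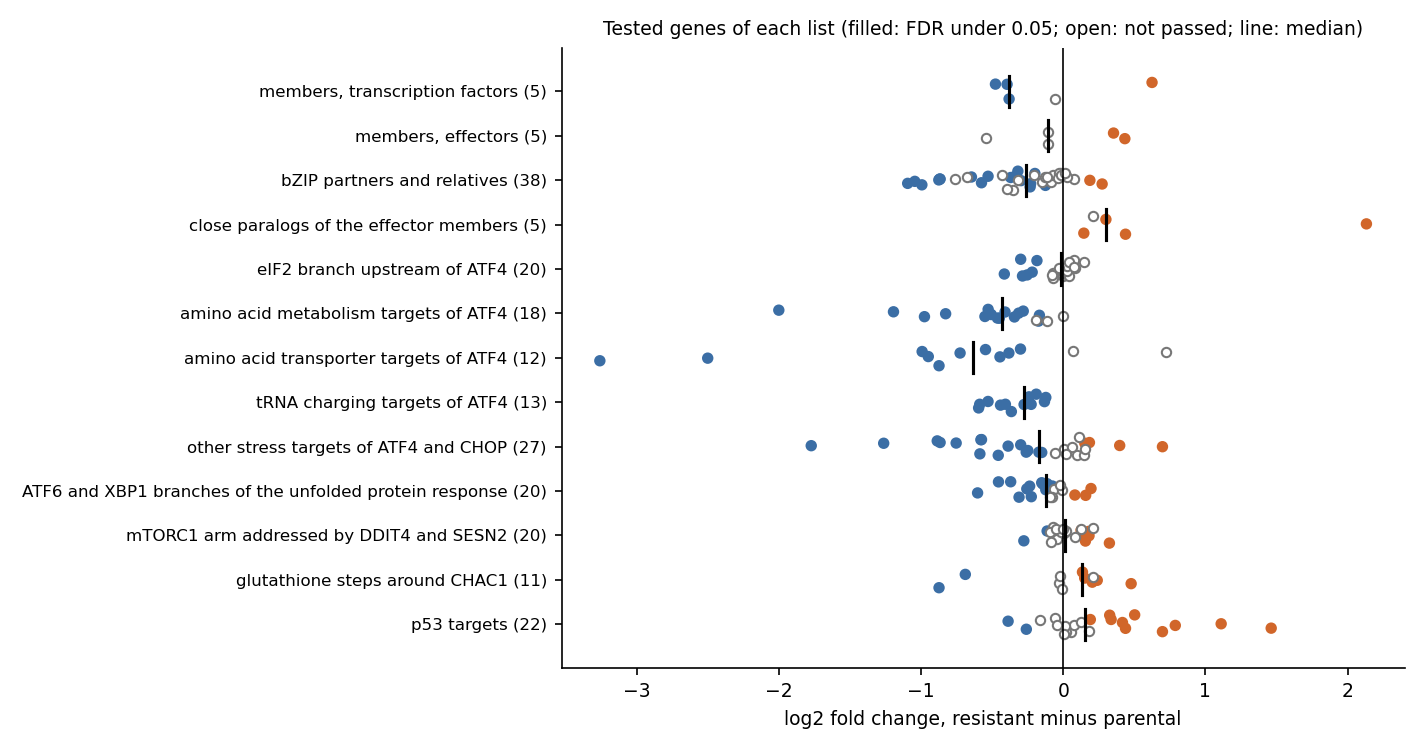
Log2 fold change (x axis, resistant minus parental) of each tested gene in 13 lists (number of tested genes in brackets). Points are genes, filled where the FDR was less than 0.05 (orange higher, blue lower) and open otherwise, with vertical jitter for visibility only, and black lines are medians. The lists of amino acid metabolism, amino acid transport and tRNA charging have no orange point, whereas the effectors and their paralogs include 2 and 4.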

How the data were processed

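RNA-Seq libraries of parental 22Rv1 cells and of the BL-B01D1_R subline (n = 3 each) were assigned to groups by their sample titles. The labels give mouse as the organism, but the line and its Ensembl identifiers are human and were treated so here. Per the methods and the submitters' processing notes, the authors used fastp, mapped reads to hg38 with HISAT2 (2.0.5) and counted them with featureCounts (1.5.0-p3). They deposited raw counts per gene, without normalization, and gene length in bases as another quantity. The annotation release and the strand setting are not given in the sources used here. The number of unused columns of per-sample values was 0.

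Genes passing filterByExpr entered the quasi-likelihood test of edgeR (4.0.16, R 4.3.3, TMM scaling, Benjamini-Hochberg adjustment). SEs were derived from the fold change and its F statistic. The study's methods name limma, which was run as an alternative (3.58.1), as was DESeq2 (1.42.0). The other alternatives were other scalings and filters, glmTreat, limma on log2(FPKM + 1), protein-coding genes only, the replicate block and each library left out in turn. The scripts were tested on simulated data. Floors in counts cover counting error only. The 95% confidence intervals of fold changes were built from these SEs and so include the estimated spread between libraries.

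The 10 genes and the gene lists were chosen with earlier results of these data known. Named genes are the 10, all paralogs of the effectors, the 5 genes most like ATF4 (of which 1 is not reported here), and in each list the genes past an FDR of 0.05 with an absolute log2 fold change over 1, plus the 2 largest and the 2 smallest of those past that FDR. CDKN1A, ASNS, PHGDH, CEBPG, JUN, NUPR1, HSPA5, EIF2AK4 and the genes overlapping ATF5 and DDIT3 were named after their values were seen. Promoter motifs and protein sequences were not analysed here.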

Additional observations from a re-analysis of the deposited data

How the results depend on the processing

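Of 255 values computed under the alternatives for the 10 genes and for the counts of called genes, 238 kept both sign and call, or stayed within 1.5 times for counts. No fold change of the 10 genes reversed. The 3 higher genes stayed at 3, and the lower ones at 3, or 4 where CHAC1 passed, under every alternative except glmTreat against 0.5, which left 0 and 0, with ATF4 at −0.40, ATF3 at −0.48, ATF5 at 0.62, CEBPB at −0.38, TRIB3 at 0.35 and DDIT4 at 0.43, by its stricter construction. CHAC1 (−0.55, not passed) passed with library size alone (−0.56), at least 10 counts in every library (−0.54), limma-voom (−0.56) and limma on log2(FPKM + 1) (−0.33), passed without resistant library 2, and lay between −0.70 and −0.43 in the leave-one-out fits; the cause was not tested. Over all genes, 434 were called higher and 487 lower at an absolute log2 fold change over 1, against 248 and 287 with at least 10 counts in every library and 114 and 68 with limma on log2(FPKM + 1). Without mitochondrial genes, an alternative chosen after seeing the data, the calls of the 10 genes did not change. With the replicate number as a block, ATF4 was at −0.40 and 418 and 471 genes were called. Same-numbered libraries deviated with correlations of −0.0196 to −0.00806. Whether they shared a culture or a run was not tested. Depth limits CHAC1 and DDIT3 most.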

Other observations

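SESN2, GDF15, DDIT4 and ATF3 can also be induced by p53. Of 22 tested p53 targets, 10 were higher, 2 lower and 10 did not pass, with a median log2 fold change of 0.15, against 17.1% of all genes passing in the higher and 18.4% in the lower direction. With glmTreat against 0.5, 3 were higher and 0 lower. TP53INP1 rose from 33.2 ± 1.59 to 91.4 ± 2.46 CPM (SD, n = 3 each; log2 fold change 1.46) and PHLDA3, which binds phosphoinositides and restrains AKT, from 11.8 ± 1.596 to 25.5 ± 1.07 CPM (1.11). CDKN1A, which encodes the cell cycle inhibitor p21 and was named after its value was seen, rose from 61.4 ± 4.10 to 106 ± 7.18 CPM (0.79). TNFRSF10B, a death receptor gene that both p53 and CHOP induce, fell (−0.39), as did BAX (−0.26).

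Around CHAC1, 5 of 11 genes of glutathione metabolism were higher, 2 lower and 4 did not pass, with a median log2 fold change of 0.14, against 17.1% higher and 18.4% lower among all genes tested. With glmTreat, 0 were higher. GCLC, the catalytic subunit of the first step of glutathione synthesis, rose from 87.8 ± 1.41 to 122 ± 3.94 CPM (SD, n = 3 each; 0.48), and GPX4, which reduces lipid peroxides, rose as well (0.24). SLC7A11, the cystine transporter and an ATF4 target, fell from 111 ± 2.44 to 60.4 ± 3.01 CPM (−0.87), and GGT1, which cleaves extracellular glutathione, fell from 63.1 ± 0.94 to 39.2 ± 3.02 CPM (−0.69).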
